A study of Arabidopsis thaliana with 36 samples.

Results

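The 10 genes described here set and remove cytosine methylation in Arabidopsis thaliana, and they were taken by locus from a table of 33977 genes. Writers, the 6 genes whose products place or keep methyl groups, were MET1 (AT5G49160), CMT3 (AT1G69770), CMT2 (AT4G19020), DRM2 (AT5G14620), DDM1 (AT5G66750) and AGO4 (AT2G27040). Demethylases, the 4 genes whose products remove methylated cytosine, were ROS1 (AT2G36490), DME (AT5G04560), DML2 (AT3G10010) and DML3 (AT4G34060). All 10 passed the filter on low values, and they were chosen with earlier results of these data known.

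Plants methylate cytosine in 3 sequence contexts, CG, CHG and CHH, and use several enzymes to do so. MET1 copies CG methylation onto the new strand after replication, CMT3 keeps CHG methylation, and CMT2 methylates CHH sites in heterochromatin. DRM2 places methylation where small interfering RNAs held by AGO4 direct it, and DDM1 is a chromatin remodeller that opens heterochromatin to the methyltransferases. ROS1, DML2 and DML3 are DNA glycosylases that cut methylcytosine out in vegetative tissue, and base excision repair then fills the gap. DME is the related glycosylase best known for activating maternal alleles in the central cell of the ovule. In earlier work on Arabidopsis mutants, ROS1 transcripts were found to be scarce where MET1 or RNA-directed methylation was lost.

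The material was whole rosettes of wild-type Col-0, 4 weeks old, grown on soil in short days of 8 h light and 16 h dark at 22 °C. Gamma rays came from a 137Cs source at 1.4 cGy per s, for 7 s (10 cGy) or 71 s (100 cGy), and mock plants received 0 cGy. Rosettes were harvested 1, 3, 24 or 72 h later, which gave 12 groups of 3 libraries, 36 in all, made from poly(A) RNA with a directional kit. How mock plants were handled, the clock hour of harvest, and whether replicates were separate plants or exposures are not given in the labels, so p-values measure the spread between these libraries, which may be technical.

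Values are CPM, reads of a gene scaled to a library sum of 1e6. A fold change is a log2 difference of group means of log2(CPM + 0.5) with its standard error (SE), which understates changes of weakly expressed genes. A gene was called changed when its p-value from limma, adjusted by Benjamini and Hochberg over the 18875 genes tested, was under 0.05. Depth, recovered from the step between CPM values, was 22.1 to 36.7 per library in units of 1e6 reads, and the fewest reads behind any value of the 10 genes were 208, for DRM2. Leaf photosynthesis markers (5 of 5 tested) summed to 34930 to 45830 CPM per library, against 0.0724 to 0.992 CPM for 5 flower markers and 0.0967 to 0.599 CPM for 4 embryo and seed markers, none of which passed the filter. Of 5 root markers 2 passed, with a sum over the list of 10.0 to 16.1 CPM. The damage genes XRI1, PARP2 and BRCA1 served as a check of the dose labels. At 100 cGy after 1 h they rose by 1.76, 1.75 and 0.60 on the log2 scale (3 of 3 called, against 17.6% of all genes). At 10 cGy 1 of 3 was called after 1 h (25.3% of all genes), and 0 of 3 at 3, 24 and 72 h (1.49%, 3.29% and 9.38%). The check therefore bears on 100 cGy at 1 h and does not separate 10 cGy from mock plants. The library of 10 cGy at 3 h, replicate 1, stood apart with 0.608% of its CPM on chloroplast genes, where the next highest library had 0.331%.

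The 10 genes lie on all 5 nuclear chromosomes, and no other annotated gene overlaps any of them in the RefSeq annotation of TAIR10.1. MET1 covers chr5:19932114-19938470 on the plus strand, and CMT2 covers chr4:10414428-10421265 on the plus strand. CMT3 covers chr1:26248118-26253687 and ROS1 chr2:15307907-15314807, both on the minus strand. The longest stretch of at least 95% identity to another place in the genome was 47 bases in ROS1 and 35 in CMT2, and none was found for the other 8. Since maintenance methylation accompanies replication, the promoters were searched on both strands for 4 E2F-type motifs, TTTCCCGC, TTTGGCGC, TTTCCCGG and TTTGGCGG, the letters bound by a factor family of the S phase. The window ran from 250 bases before to 50 after the annotated gene start. A match was present in 2 of 6 writers (CMT3 and CMT2) and in 1 of 4 demethylases (ROS1), against 8 of 16 replication genes and 2.46% of 27443 promoters of protein-coding genes. Alone, TTTCCCGC was present in 0.798% of those promoters, TTTGGCGC in 0.434%, TTTCCCGG in 0.59% and TTTGGCGG in 0.751%. MET1, DRM2, DDM1, AGO4, DME, DML2 and DML3 had none of these letters in the window, and a match is a description of sequence, not a bound site.

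The 250 bases before the start are shown for MET1, the writer with the largest fold change after irradiation, and for CMT2 and ROS1, where capitals mark the motif. MET1 is shown at chr5:19931864-19932113 (plus strand), CMT2 at chr4:10414178-10414427 (plus strand) and ROS1 at chr2:15314808-15315057 (minus strand). For CMT3 only the 30 bases around its match are shown, at chr1:26253647-26253676 (minus strand), since the match starts 22 bases past the gene start. The stretch before CMT2 overlaps 1 neighbouring annotated gene. Sequences are from RefSeq, TAIR10.1, written 5′ to 3′ on the gene's strand.
MET1: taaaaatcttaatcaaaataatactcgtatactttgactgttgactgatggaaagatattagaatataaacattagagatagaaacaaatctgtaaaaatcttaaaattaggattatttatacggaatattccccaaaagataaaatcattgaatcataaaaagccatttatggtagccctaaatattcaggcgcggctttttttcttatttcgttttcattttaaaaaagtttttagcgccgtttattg
CMT2: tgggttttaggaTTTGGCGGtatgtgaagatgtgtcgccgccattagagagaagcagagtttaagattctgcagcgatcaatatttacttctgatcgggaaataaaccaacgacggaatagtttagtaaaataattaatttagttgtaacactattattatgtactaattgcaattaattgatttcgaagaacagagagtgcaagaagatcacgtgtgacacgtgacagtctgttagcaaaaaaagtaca
ROS1: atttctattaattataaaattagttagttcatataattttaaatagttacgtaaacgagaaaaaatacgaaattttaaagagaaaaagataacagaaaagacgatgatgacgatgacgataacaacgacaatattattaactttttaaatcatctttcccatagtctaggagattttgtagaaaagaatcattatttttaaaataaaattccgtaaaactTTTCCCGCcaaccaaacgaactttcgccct
CMT3: aaacccatcacTTTGGCGCttatgtgacgc

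All 10 genes were expressed in every library. Per kilobase of exon, mean levels over the 36 libraries ran from 3.45 CPM for DML3 to 14.2 CPM for AGO4, a span of 4.12 times. ROS1 (13.3 CPM per kb) and CMT2 (11.8) followed AGO4, then DME (8.95), CMT3 (8.23), MET1 (7.81), DDM1 (5.05), DML2 (4.12) and DRM2 (4.09). Writers and demethylases were therefore interleaved in level, and DME, which is known best from the ovule, stood above MET1 in rosettes in which flower markers were near 0. Between its highest and lowest group mean a gene varied by 1.21 times (DRM2) to 2.13 times (DML3), and the median coefficient of variation among replicates was 4.45% to 8.58%.

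**Figure D1:**
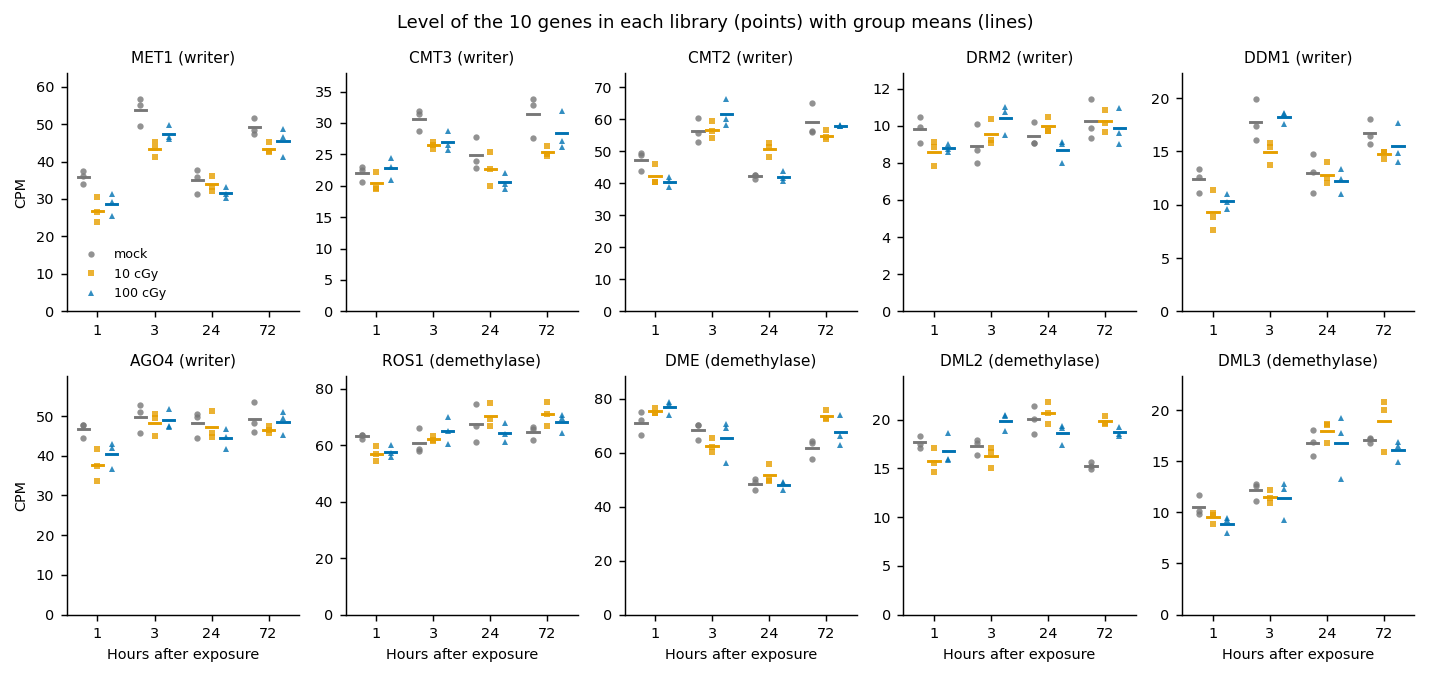
CPM of each of the 10 genes (linear axes from 0) against hours after exposure, with 1 point per library (grey circles mock, orange squares 10 cGy, blue triangles 100 cGy) and a line at each group mean (n = 3). MET1, CMT3, CMT2 and DDM1 were higher in mock plants at 3 and 72 h than at 1 h, and DML2 at 72 h was higher at both doses than in mock plants.

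In mock plants 4 of the 6 writers (MET1, CMT3, CMT2 and DDM1) rose between 1 h and 3 h and again stood higher at 72 h. MET1 was at 36.1, 37.6 and 34.0 CPM at 1 h, 55.0, 56.8 and 49.6 CPM at 3 h, 35.8, 37.8 and 31.4 CPM at 24 h, and 51.6, 47.2 and 48.5 CPM at 72 h. The 3 h and 72 h libraries all lay above those of 1 h and 24 h. MET1 rose by 0.58 ± 0.08 (SE) at 3 h against 1 h (adjusted p = 1.52e-06) and by 0.45 ± 0.08 at 72 h against 1 h (adjusted p = 0.000106). CMT3, CMT2 and DDM1 rose in the same 2 comparisons, CMT3 by 0.47 and 0.50, CMT2 by 0.25 and 0.32, and DDM1 by 0.51 and 0.42. DRM2 and AGO4, which act in RNA-directed methylation, gave fold changes between -0.13 and 0.11 in the 4 mock comparisons, and none was called.

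The demethylases followed other courses. DME was at 75.2, 66.5 and 72.0 CPM at 1 h in mock plants and at 50.2, 49.0 and 46.1 CPM at 24 h, without overlap. It fell by 0.55 on the log2 scale (SE 0.07, adjusted p = 4.11e-07). DML3 was at 10.1, 9.80 and 11.7 CPM at 1 h, 16.9, 15.5 and 18.0 CPM at 24 h, and 17.2, 17.1 and 16.8 CPM at 72 h. Both later times lay above 1 h, with fold changes of 0.65 ± 0.12 (adjusted p = 5.13e-05) and 0.68 ± 0.12 (adjusted p = 4.98e-05). DML2 stood at 0.17 at 24 h (adjusted p = 0.0418) and at -0.20 at 72 h (adjusted p = 0.0219) against 1 h, and between 24 and 72 h it fell by 0.38 (adjusted p = 4.31e-05). ROS1 gave fold changes from -0.06 to 0.09 in the 4 comparisons and was not called.

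Called members numbered 4 of 10 at 3 h against 1 h (background, the share of all tested genes called, 44.1%), 4 of 10 at 24 h (38.4%), 7 of 10 at 72 h (33.4%) and 6 of 10 at 72 h against 24 h (42.7%). The first 2 shares were near the background, although the 4 calls at 3 h were all rises and 24% of all genes were called higher there. At 24 h the DML2 call was lost without replicate 2 or 3 of 1 h or replicate 1 or 2 of 24 h. The CMT2 call there (-0.16, adjusted p = 0.0464) held without 1 h replicate 1 and was lost without any other library. At 72 h against 1 h, DME (-0.20, adjusted p = 0.0293) was lost without 1 h replicate 1 or 3 or 72 h replicate 2, and DML2 without 1 h replicate 1 or 72 h replicate 1 or 2. DDM1 at 72 h against 24 h (0.36, adjusted p = 0.0118) was lost without 24 h replicate 3 or 72 h replicate 1. Time after exposure, plant age and hour of day cannot be told apart here.

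At 1 h MET1, AGO4 and DDM1 fell after 10 cGy, and MET1 and CMT2 fell after 100 cGy. In place of the mock values of 34.0 to 37.6 CPM, MET1 was at 30.4, 26.4 and 23.8 CPM after 10 cGy and at 29.3, 25.6 and 31.3 CPM after 100 cGy. All 6 irradiated libraries lay below all 3 mock libraries. MET1 fell by 0.42 ± 0.08 at 10 cGy (group means 26.9 ± 3.31 against 35.9 ± 1.81 CPM, SD, n = 3; adjusted p = 0.000342) and by 0.32 ± 0.08 at 100 cGy (28.7 ± 2.90 CPM; adjusted p = 0.00577). The 10 cGy call held without any 1 library, whereas the 100 cGy call was lost without 100 cGy replicate 2 (adjusted p = 0.0639). In whole rosettes, fewer cells of a type and less RNA per cell cannot be told apart.

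AGO4 was at 47.8, 47.7 and 44.6 CPM in mock plants at 1 h, at 41.8, 37.5 and 33.7 CPM after 10 cGy and at 42.1, 36.7 and 42.9 CPM after 100 cGy. Neither irradiated group overlapped mock. The fall at 10 cGy was 0.31 ± 0.08 (adjusted p = 0.00363) and held without any 1 library, while the value at 100 cGy was -0.20 (adjusted p = 0.0728). DDM1 was at 11.1, 12.6 and 13.4 CPM in mock plants and at 11.4, 8.85 and 7.64 CPM after 10 cGy, so that 1 irradiated library lay within the mock range. Its fall of 0.41 ± 0.11 (adjusted p = 0.00804) rested on 10 cGy replicate 3, without which the adjusted p was 0.089. CMT2 was called at 100 cGy, at 41.9, 40.7 and 38.9 CPM against 43.7, 48.7 and 49.4 CPM, a fall of 0.22 ± 0.06 (adjusted p = 0.0141). That call was lost without mock replicate 2, mock replicate 3 or 100 cGy replicate 3. CMT3, the CHG methyltransferase, gave -0.10 and 0.05 at the 2 doses, and DRM2 gave -0.18 and -0.15, none called.

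No demethylase was called at 1 h. ROS1 was at 63.5, 63.6 and 62.4 CPM in mock plants, at 59.8, 54.5 and 57.0 CPM after 10 cGy and at 60.3, 55.9 and 57.3 CPM after 100 cGy. All 6 irradiated libraries were below mock, with fold changes of -0.15 (adjusted p = 0.111) and -0.13 (adjusted p = 0.206). DML2 gave -0.16 and -0.07, DML3 -0.14 and -0.23, and DME 0.08 and 0.11. The calls numbered 3 of 10 at 10 cGy, against a background of 25.3% of all genes, and 2 of 10 at 100 cGy, against 17.6%. Both shares were near their background, so the number of calls, counted over both directions, did not set these genes apart. All of these calls were falls, and 11.8% (10 cGy) and 7.37% (100 cGy) of all genes were called lower. Without 10 cGy replicate 1 the count at 10 cGy was 5 and without replicate 3 it was 2. The median fold change of the 6 writers was -0.25 at 10 cGy and -0.21 at 100 cGy, that of the 4 demethylases -0.14 and -0.10, and that of all tested genes -0.01 and 0.02.

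Dose made no called difference at 1 h. The comparison of 100 cGy with 10 cGy gave 0 of 10 calls (0.726% of all genes). At an unadjusted p under 0.05 it gave 0 of 10, against 1784 of the 18875 genes. For MET1 the difference was 0.10, with a 95% interval of -0.07 to 0.26, which leaves room for a modest difference in either direction.

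At 3 h none of the 10 genes was called at either dose, in a background of 1.49% at 10 cGy and 12.4% at 100 cGy. At an unadjusted p under 0.05 there were 3 of 10 at each dose, against 3073 (10 cGy) and 5397 (100 cGy) of the 18875 genes. With median-ratio scaling MET1 (-0.29, adjusted p = 0.0417) and CMT3 (-0.29, adjusted p = 0.0472) passed at 100 cGy, and without 100 cGy replicate 1 DRM2 (0.28, adjusted p = 0.0497) and DML2 (0.23, adjusted p = 0.0312) did. That scaling divided the 100 cGy libraries by 1.00 (replicate 1), 1.09 (replicate 2) and 1.11 (replicate 3). The libraries left without replicate 1 were thus those with the larger factors, and the part of this in the DRM2 and DML2 values was not tested. MET1 was at 43.7, 41.1 and 45.3 CPM after 10 cGy against 55.0, 56.8 and 49.6 CPM, with no overlap and a fold change of -0.31 that missed the threshold (adjusted p = 0.0546). Without the library with the high chloroplast share it was -0.31 (adjusted p = 0.128), and it passed without 10 cGy replicate 3 (0.0385) or mock replicate 3 (0.0311). DML2 was at 18.9, 20.3 and 20.5 CPM after 100 cGy, at 17.1, 15.1 and 16.6 CPM after 10 cGy and at 17.6, 16.4 and 18.0 CPM in mock plants. The 100 cGy libraries lay above both other groups. DML2 was called higher at 100 cGy than at 10 cGy by 0.29 ± 0.07 (adjusted p = 0.0079; 1 of 10 members called, background 12.6%), and its value against mock was 0.20 (adjusted p = 0.056). In that dose comparison the median of all genes was 0.11, and with median-ratio scaling of the libraries DML2 no longer passed (adjusted p = 0.154). It also failed when the 3 h libraries were fitted alone (0.085) and without 10 cGy replicate 2 or 100 cGy replicate 2.

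At 24 h the one gene called was CMT2, the heterochromatin methyltransferase. Its libraries were at 51.3, 48.3 and 52.5 CPM after 10 cGy, at 41.3, 42.7 and 42.6 CPM in mock plants and at 41.7, 40.7 and 43.7 CPM after 100 cGy. The 10 cGy libraries lay above all 6 others. CMT2 rose by 0.26 ± 0.06 at 10 cGy against mock (adjusted p = 0.0207; 1 of 10 called, background 3.29%) and was lower at 100 cGy than at 10 cGy by 0.27 ± 0.06, a fold change of -0.27 (adjusted p = 0.034; 1 of 10, background 1.13%). Both calls were lost with median-ratio scaling (adjusted p = 0.136 and 0.193), when the 24 h libraries were fitted alone (0.15 and 0.185) and without 10 cGy replicate 1 or 3. The first was also lost without mock replicate 1, and the second without 100 cGy replicate 1 or 2 and with the replicate number as a block (0.0503). At 100 cGy all 10 fold changes against mock were negative, from -0.26 (CMT3) to -0.01 (CMT2), and none was called (background 0.599%). At an unadjusted p under 0.05 there was 1 of 10, against 2663 of the 18875 genes. The median over all genes there was -0.01.

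At 72 h after 10 cGy DML2 and DME rose and CMT3 fell. DML2, one of the vegetative demethylases, was at 14.9, 15.3 and 15.7 CPM in mock plants, at 19.6, 19.7 and 20.4 CPM after 10 cGy and at 18.6, 19.2 and 18.4 CPM after 100 cGy. The 3 groups did not overlap. DML2 rose by 0.37 ± 0.07 at 10 cGy (group means 19.9 and 15.3 CPM; adjusted p = 0.00171), a call that held without any 1 library, and by 0.28 ± 0.07 at 100 cGy (adjusted p = 0.0335). The second call was lost without mock replicate 1 or 2 or 100 cGy replicate 1 or 2, and when the 72 h libraries were fitted alone (adjusted p = 0.0645). Mock plants at 72 h were also the lowest of the 12 groups for DML2, so the rise stood against a low mock level.

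DME was at 72.4, 75.9 and 72.9 CPM after 10 cGy against 64.3, 57.9 and 63.7 CPM in mock plants, without overlap. It rose by 0.25 ± 0.07 (adjusted p = 0.0239) and gave 0.13 at 100 cGy (adjusted p = 0.357). ROS1 gave 0.13 and 0.08 and DML3 0.14 and -0.08, none called, although the 10 cGy libraries of ROS1, at 75.4, 71.0 and 66.8 CPM, all lay above the mock ones at 65.8, 61.8 and 66.6 CPM. On the side of the writers CMT3 was at 24.8, 26.4 and 25.0 CPM after 10 cGy against 32.9, 33.9 and 27.6 CPM, again without overlap. It fell by 0.30 ± 0.09 (adjusted p = 0.0345), and MET1 and DDM1 both gave -0.17, not called. The CMT3 call survived the loss of mock replicate 3 alone among the 6 libraries, and the DME call the loss of mock replicate 1 or 3. Both were also lost when the 72 h libraries were fitted alone (adjusted p = 0.0942 for CMT3 and 0.0665 for DME), and DME with median-ratio scaling (0.0611).

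The counts at 72 h were 3 of 10 at 10 cGy (2 higher, 1 lower; background 9.38%) and 1 of 10 at 100 cGy (background 1.58%). At 10 cGy the 4 demethylases had a median of 0.19 and the 6 writers one of -0.14, with 0.03 over all genes. At 100 cGy the medians were 0.10, -0.08 and 0.04. Between the doses at 72 h limma called 0 of 18875 genes (background 0%; 1869 genes and 0 of the 10 at an unadjusted p under 0.05). Without 100 cGy replicate 3 it called 399 and without 100 cGy replicate 1 it called 27, with 0 of the 10 in each case. For DML2 that difference was -0.08 with a 95% interval of -0.22 to 0.06.

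**Figure D2:**
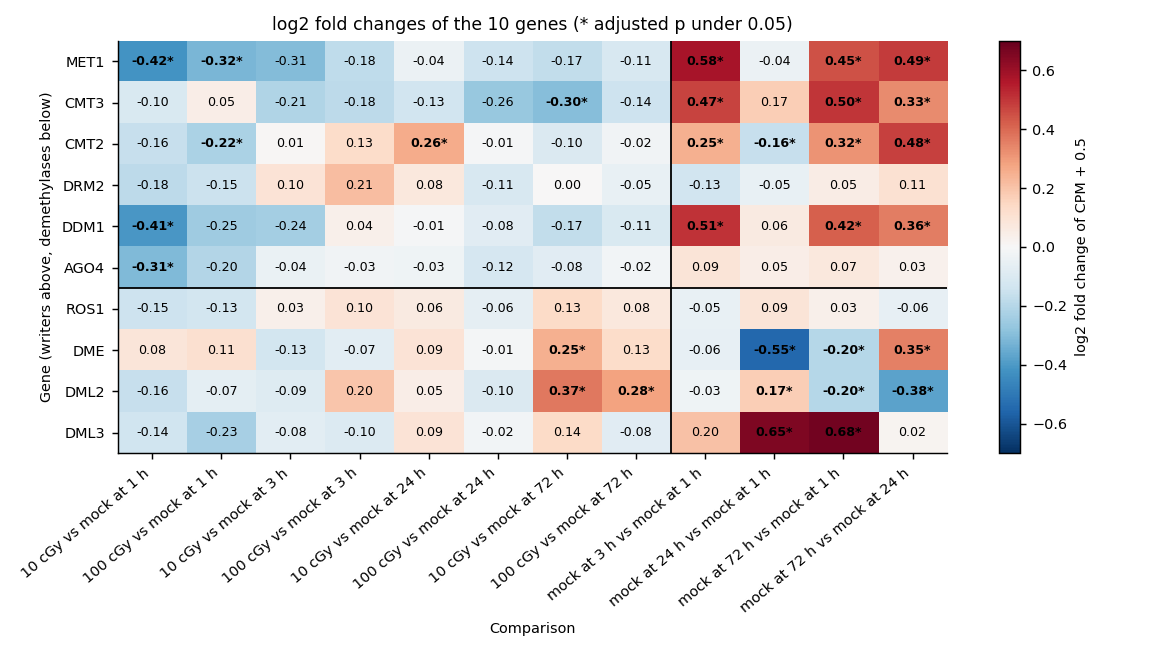
log2 fold changes of the 10 genes (rows, writers above the line and demethylases below it) in the 8 comparisons of a dose with mock plants of the same time and, right of the vertical line, 4 comparisons between mock groups. Colour runs from blue (lower) to red (higher), and bold values with an asterisk had an adjusted p under 0.05. The called values against mock ran from -0.42 (MET1, 10 cGy, 1 h) to 0.37 (DML2, 10 cGy, 72 h), a smaller span than the -0.55 to 0.68 between mock groups.

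Whether a dose's effect differed between times was tested directly. For 10 cGy the effect at 24 h minus that at 1 h was called for MET1 and CMT2 (2 of 10, background 12.5%), and the effect at 72 h minus that at 1 h for ROS1 and DML2 (2 of 10, background 15.1%). At 3 h minus 1 h there was none (background 14.6%), with 3 of 10 and 5127 of all genes at an unadjusted p under 0.05. For 100 cGy none was called at 24 h minus 1 h (background 8.81%), with 2 of 10 and 4118 of all genes unadjusted. The calls for 100 cGy were CMT2 at 3 h minus 1 h (1 of 10, background 11.4%) and DML2 at 72 h minus 1 h (1 of 10, 7.59%). All these changes were positive, and their values are given in the closing section. Counts of members were again close to the background, which holds calls of both signs. Called higher were 7.86% and 7.94% of all genes (10 cGy, 24 and 72 h minus 1 h) and 7.83% and 4.14% (100 cGy, 3 and 72 h minus 1 h).

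The balance between the classes was summarised in each library as the mean log2(CPM + 0.5) of the 6 writers minus that of the 4 demethylases, as a description with no test. It was -0.31 in mock plants at 1 h, -0.03 at 3 h, -0.39 at 24 h and -0.08 at 72 h (group means, n = 3), nearest to 0 at 3 and 72 h. After 10 cGy at 1 h it was -0.48 ± 0.09 (SD), 0.17 below mock in log2 units with no overlap (difference -0.17). At 72 h the 10 cGy libraries lay between -0.51 and -0.37 and the mock ones between -0.16 and -0.03. The difference of -0.36 there was the largest of the 8 dose comparisons. With the 4 methyltransferases alone as writers it was -0.37. At 100 cGy the difference was -0.10 at 1 h and -0.18 at 72 h, both with overlapping libraries. At 3 and 24 h the differences ran from -0.03 to -0.07 with overlap in all 4 comparisons.

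ROS1 was also set against MET1 alone, again with no test. The log2 difference of ROS1 and MET1 was above all mock libraries of the time after 10 cGy at 1 h (mean 0.27 above mock), at 3 h (0.34) and at 72 h (0.31), and after 100 cGy at 3 h (0.27). ROS1 itself was not called in any of these groups. Mock plants had means of 0.81, 0.18, 0.94 and 0.40 at 1, 3, 24 and 72 h.

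**Figure D3:**
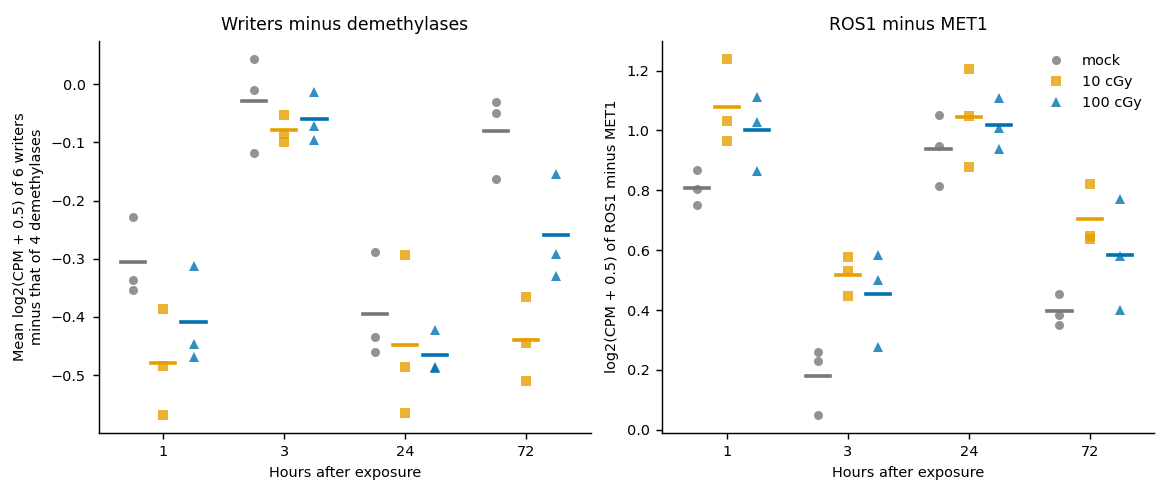
Left, the mean log2(CPM + 0.5) of the 6 writers minus that of the 4 demethylases, and right, the log2 difference of ROS1 and MET1, both on linear axes against hours after exposure, with 1 point per library and a line at each group mean (n = 3). At 72 h the 10 cGy libraries, from -0.51 to -0.37 on the left, lie below all mock libraries.

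Across the 12 group means MET1 ran closest, among the 10 genes, to DDM1 (Pearson r = 0.97, Spearman rho = 0.95) and CMT3 (0.92 and 0.91), and followed CMT2 (0.91 and 0.87) and AGO4 (0.85 and 0.91). Its r with ROS1 was 0.37, with DME 0.07 and with DML2 0.04. ROS1 ran with DML3 (0.87 and 0.81) and DML2 (0.75 and 0.76) and against DME (-0.46 and -0.42). These correlations are over 12 group means that share libraries and mostly differ in time, and they carry no p-value. Among all tested genes those most like MET1 over the 12 means were HCF106 (r = 0.982), AT5G57170 (0.981), LSMT-L (0.977), CDC6 (0.976) and PPD1 (0.976). For ROS1 they were SDH5 (0.962), AT1G48660 (0.959), AT1G68710 (0.958), AT4G39870 (0.947) and C/VIF1 (0.945).

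Ordered by group mean, MET1 ran from 53.8 CPM (mock, 3 h) to 26.9 CPM (10 cGy, 1 h), and all 3 h and 72 h groups stood above all 1 h and 24 h groups. That step, between 10 cGy at 3 h and mock at 1 h, was the one pair of neighbours in its order whose libraries did not overlap. CMT2 showed the same split of times, from 61.6 CPM (100 cGy, 3 h) to 40.5 CPM (100 cGy, 1 h), with its step between 10 cGy at 72 h and 10 cGy at 24 h. For DME the 3 groups of 24 h stood below the other 9, from 77.1 CPM (100 cGy, 1 h) down to 48.0 CPM (100 cGy, 24 h). For DML3 the 24 h and 72 h groups stood above those of 1 h and 3 h, from 18.9 CPM (10 cGy, 72 h) to 8.87 CPM (100 cGy, 1 h). DML2 ran from 20.7 CPM (10 cGy, 24 h) to 15.3 CPM (mock, 72 h), and the one pair of neighbours without overlap was 10 cGy and 100 cGy at 72 h. For CMT3, DRM2, DDM1, AGO4 and ROS1 every pair of neighbours overlapped. CMT3 ran from 31.5 CPM (mock, 72 h) to 20.4 CPM, DDM1 from 18.2 CPM (100 cGy, 3 h) to 9.28 CPM, AGO4 from 49.8 CPM (mock, 3 h) to 37.7 CPM, ROS1 from 71.1 CPM (10 cGy, 72 h) to 57.1 CPM and DRM2 from 10.4 CPM (100 cGy, 3 h) to 8.59 CPM. The lowest group of each of these 5, as of MET1, was 10 cGy at 1 h. How many of all genes had that lowest group, or overlapped in every pair of neighbours, was not counted.

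Genes of DNA replication were set beside the writers, since maintenance methylation follows the replication fork. All 16 listed were tested, and all 16 rose in mock plants at 3 h and at 72 h against 1 h (medians 0.56 and 0.52). The background there was 44.1% and 33.4% of all genes, with 24% and 18.4% called higher. At 10 cGy 9 of 16 fell at 1 h (median -0.33; background 25.3%), led by RNR2A, a ribonucleotide reductase subunit (-0.35, adjusted p = 8.09e-05), the helicase subunits MCM2 (-0.38, adjusted p = 0.000844) and MCM7 (-0.42, adjusted p = 0.00131), and ICU2, the catalytic subunit of DNA polymerase alpha (-0.38, adjusted p = 0.00363). The share of all genes called lower in that comparison was 11.8%. Without 10 cGy 1 h replicate 3, the library on which the DDM1 call rested, 4 of 16 were called. At 10 cGy and 3 h 8 of 16 fell (median -0.39; background 1.49%), but 0 did without mock replicate 1 or without 10 cGy replicate 2, 1 without mock replicate 2, 3 without 10 cGy replicate 1, and 0 when the 3 h libraries were fitted alone. At 100 cGy 1 rose and 3 fell at 1 h (background 17.6%), the riser being TSO2 (0.85), a ribonucleotide reductase subunit induced by DNA damage; the count was 2 without mock replicate 3 or 100 cGy replicate 2. At 100 cGy and 3 h 1 rose and 3 fell (median -0.18; background 12.4%), and the riser was RNR2A (0.24, adjusted p = 0.0141), which had fallen at 1 h. The count of 4 there was 0 without mock replicate 1 or 100 cGy replicate 2 and when the 3 h libraries were fitted alone, 1 without mock replicate 2 or 100 cGy replicate 3, and 2 without 100 cGy replicate 1, without the filter, without the trend and with the replicate block. At 72 h 3 of 16 fell at 10 cGy (background 9.38%), but 0 did without mock replicate 2 and 1 without 10 cGy replicate 1 or 2. At 100 cGy and 72 h 0 of 16 passed (background 1.58%), with 4 at an unadjusted p under 0.05 against 3319 of all genes. At 24 h 0 of 16 passed at either dose (background 3.29% and 0.599%). Unadjusted, 0 did at 10 cGy and 7 at 100 cGy, against 3602 and 2663 of all genes.

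Markers of dividing cells (5 of 5 tested) summed to 69.6 to 86.0 CPM after 10 cGy at 1 h and to 85.8 to 92.7 CPM in mock plants, and to 75.3 to 81.1 against 85.6 to 121.6 CPM at 72 h. In these 10 cGy comparisons all 5 fold changes were negative. Called lower were 1 of 5 at 1 h (median -0.30; background 25.3%) and 1 of 5 at 72 h (median -0.31; background 9.38%). At 100 cGy and 24 h all 10 members gave negative fold changes. There the marker sum was 65.2 to 70.2 CPM against 75.5 to 89.0 CPM in mock plants, without overlap. The 5 markers had a median of -0.40, with 0 of 5 called (background 0.599%). At an unadjusted p under 0.05 there were 4 of 5, against 2663 of the 18875 genes. At 100 cGy and 1 h the sum was 85.3 to 93.8 CPM, against the mock 85.8 to 92.7 CPM, and there 15 of 16 replication genes were negative (median -0.19). Most of the sum came from HTR1, a histone H3 gene (median 56.9 CPM over the libraries). The part of a shift in dividing cells in the values of MET1, CMT3 and DDM1 was not tested. Over the 12 group means the mean of the 16 replication genes had r = 0.95 with DDM1, 0.91 with MET1 and with AGO4, 0.87 with CMT3, 0.80 with CMT2 and 0.58 with DRM2. With the demethylases r was 0.56 for DML3, 0.55 for ROS1, 0.25 for DML2 and -0.26 for DME, so DRM2 stood with DML3 and ROS1 rather than with the other writers.

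**Figure D4:**
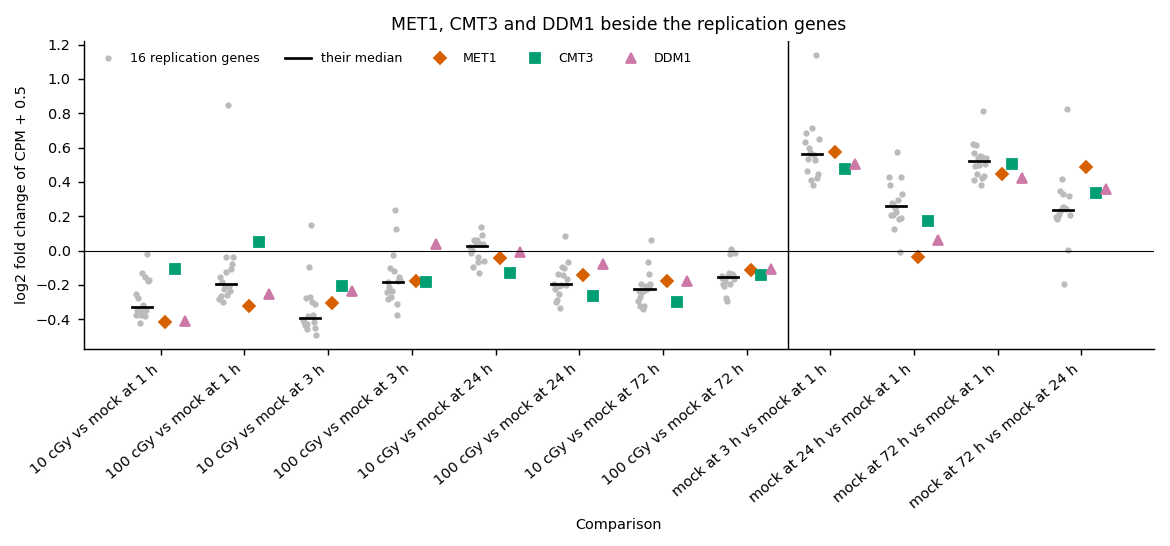
log2 fold changes of the 16 replication genes (grey points, black line at their median), MET1 (diamonds), CMT3 (squares) and DDM1 (triangles) in the 8 comparisons with mock and the 4 between mock groups (right of the vertical line). In mock plants at 3 h and 72 h against 1 h all 16 grey points and the 3 writers lie above 0, and MET1 lies below 0 in all 8 dose comparisons, 2 of which passed the test.

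Other genes of DNA methylation were counted from a list of 40, of which 34 passed the filter. At 10 cGy and 1 h 1 rose and 5 fell, 17.6% of those tested and below the 25.3% of all genes, with a median of -0.11. The gene that rose was SAHH1, which recycles the by-product of methyl transfer (0.27, adjusted p = 0.000976). Those that fell were SUVH9, a methyl-DNA reader of the RNA-directed pathway (-0.23, adjusted p = 0.00105), VIM1 and VIM3, which bring MET1 to hemimethylated DNA (-0.43, adjusted p = 0.00124, and -0.38, adjusted p = 0.0263), FDM1 (-0.28) and HEN1, the methyltransferase of small RNAs (-0.24). Without mock replicate 2, mock replicate 3 or 10 cGy replicate 3 the count was 3. At 100 cGy SAHH1 (0.23) and SUVH9 (-0.25) were called, 5.88% of the list against 17.6% of all genes. At 72 h after 10 cGy VIM3 fell (-0.41, adjusted p = 0.0386), SAHH1 fell (-0.25, adjusted p = 0.0077) and AT3G12290 rose (0.17), which is 8.82% of the list against 9.38% of all genes, and none of the 3 passed with the 72 h libraries alone. Without any 1 library the count there was 1 or 2. SAHH1 also fell after 10 cGy at 24 h (-0.22; background 3.29%), and 0 genes passed there without mock replicate 1 or 2 or 10 cGy replicate 3. MORC6, an ATPase of silencing, rose after 100 cGy at 3 h (0.33, adjusted p = 0.0294; background 12.4%), where the count was 0 without mock replicate 1 or 100 cGy replicate 2 or 3 and 4 without 100 cGy replicate 1.

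Genes that assist active demethylation were counted from a list of 15, all of them tested. At 1 h MBD7, a methyl-CpG binding protein that guides demethylation, rose at 10 cGy from 7.09 to 11.8 CPM (0.70 ± 0.11, adjusted p = 2.01e-05) and at 100 cGy to 10.5 CPM (0.54 ± 0.11, adjusted p = 0.000736). AT1G20870 fell at both doses (-0.71 and -0.46), and AT3G14890 fell at 10 cGy (-0.31). The counts were 1 higher and 2 lower at 10 cGy (20% of the list, background 25.3%) and 1 higher and 1 lower at 100 cGy (13.3%, background 17.6%; 1 gene in all without mock replicate 1 or 2 or 100 cGy replicate 1 or 2). Neither share was above its background. At 3 h after 100 cGy 3 of 15 rose (background 12.4%), MET18 (0.28) and AE7 (0.37), which deliver iron-sulphur clusters, and the endonuclease ARP (0.42). In that comparison all 15 fold changes were positive, with a median of 0.09 equal to that of all genes (0.09), and with median-ratio scaling, or without 100 cGy replicate 2, 1 was called. At 72 h after 10 cGy XRCC1, a repair scaffold, rose (0.42, adjusted p = 0.0212; 1 of 15, background 9.38%), a call lost without mock replicate 1 or 10 cGy replicate 1 or 3.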

How the data were processed

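The authors deposited CPM for 33977 genes in 36 libraries (each sums to 1e6). They also deposited the natural log of CPM + 1, equal to the log of the first within 4.1e-09. Per the submitters' processing notes, Trimmomatic 0.32, STAR 2.5.2b and RSEM 1.2.28 were used with TAIR10. Their roles and settings are not given in the sources used here. Of the values above 0, 88.8% to 90.6% per library were whole-number multiples of the library's smallest step (tolerance 0.02). Depth could therefore be recovered, and no count model was used. The deposited values carry no strand setting. A floor of 3 counts was 0.0818 to 0.136 CPM, for counting error only. Groups, doses, times and replicates were read from the labels, and 0 columns were left unused.

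Genes that reached a CPM of 1 in 3 or more libraries (18875) were fitted as log2(CPM + 0.5) with limma 3.58.1 in R 4.3.3 (and data.table, release 1.17.8), with 1 mean per group, an intensity trend and 24 residual degrees of freedom, and adjusted by Benjamini and Hochberg within each of 22 comparisons. The code was tested on simulated data. Alternatives were pseudocounts of 0.1 and 1, no filter and a filter in 12 libraries, median-ratio scaling, no trend, a replicate block, the libraries of a time alone, and each library left out. The other tables were made in Python 3.11.15 with pandas 2.3.3, numpy 2.4.6 and scipy 1.17.1, and the figures with matplotlib 3.10.9. Coordinates and sequences are from RefSeq TAIR10.1, and 32548 gene IDs matched it. In that annotation DDM1 is named CHR1 and ROS1 is named DML1.

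The members and lists were chosen with earlier results of these data known. The genes named are the 10 members, up to 4 called genes of each other list with the smallest adjusted p in a comparison (all where 4 or fewer passed), and the 5 genes most like MET1 and ROS1. Not every gene the rule takes is printed. FDM1 and HEN1 in the report, the homologues of the writers below, and SDC, FWA and AT4G18650 were named after their values were seen. Genes absent from the reference under their usual symbol are given by locus.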

Additional observations from a re-analysis of the deposited data

Results flagged for a closer look

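Of the 60 tests of a change between times in the effect of a dose on the 10 genes, 6 passed (limma, adjusted over all genes within each comparison). Over all tested genes 7.59% to 15.1% were called in these comparisons, so the number that passed did not set the 10 genes apart. All comparisons of a dose subtract the same effect at 1 h, so the tests are not independent. After 10 cGy the effect on MET1 was higher at 24 h than at 1 h by 0.37 on the log2 scale (SE 0.12, adjusted p = 0.0322), from -0.42 to -0.04, and that call was lost without any of 6 of the 12 libraries and with median-ratio scaling. The effect on CMT2 was higher by 0.42 (SE 0.09, adjusted p = 0.0018), from -0.16 to 0.26, and the call held without any 1 library.

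The effect of 10 cGy on ROS1 was higher at 72 h than at 1 h by 0.28 (SE 0.09, adjusted p = 0.0432), from -0.15 to 0.13, although neither effect alone was called. That call was lost without any of 9 of 12 libraries, without the filter, without the trend and with median-ratio scaling. The effect on DML2 was higher by 0.53 (SE 0.10, adjusted p = 0.000316), from -0.16 to 0.37, and the call held in all 12 fits without 1 library.

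After 100 cGy the effect on CMT2 was higher at 3 h than at 1 h by 0.35 (SE 0.09, adjusted p = 0.00989), from -0.22 to 0.13. It held without any 1 library and was lost with median-ratio scaling. The effect on DML2 was higher at 72 h than at 1 h by 0.36 (SE 0.10, adjusted p = 0.0187), from -0.07 to 0.28, and it was lost without mock replicate 1, 100 cGy replicate 2 or 100 cGy replicate 3 of 1 h.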

How the results depend on the processing

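The 39 calls of the 10 genes were refitted under 555 alternatives: none changed sign and 81 lost the call. Of the 181 results not called, 92 of 2785 alternatives changed sign and 18 passed. With median-ratio scaling the members called were 2 for 100 cGy at 3 h (0 as reported), 0 for 10 cGy at 24 h (1), 0 for 100 cGy against 10 cGy at 3 h and at 24 h (1 each), 1 for the effect of 10 cGy at 24 h and at 72 h minus 1 h (2 each), and 0 for that of 100 cGy at 3 h minus 1 h (1). With only the libraries of the time they were 1 for 10 cGy at 72 h (3), and 0 for 10 cGy at 24 h, 100 cGy at 72 h and 100 cGy against 10 cGy at 3 h and 24 h. Without the filter or the trend, the effect of 10 cGy at 72 h minus 1 h had 1 (2). The cause was not tested.

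Leaving out 1 library gave 2 to 5 members for 10 cGy at 1 h, 1 to 2 for 100 cGy at 1 h, 0 to 1 and 0 to 2 for 10 and 100 cGy at 3 h, 0 to 1 for 10 cGy at 24 h, and 1 to 3 and 0 to 1 for 10 and 100 cGy at 72 h. For 100 cGy against 10 cGy it gave 0 to 1 at 3 h and at 24 h. For the effect minus that at 1 h it gave 0 to 1, 1 to 4 and 1 to 2 (10 cGy at 3, 24 and 72 h) and 1 to 3 and 0 to 1 (100 cGy at 3 and 72 h). For mock plants it gave 2 to 4 at 24 h and 5 to 7 at 72 h against 1 h. Over all genes, calls moved from 282 to between 19 and 664 (10 cGy, 3 h) and from 299 to between 2 and 751 (100 cGy, 72 h).

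With the replicate block, 100 cGy against 10 cGy at 24 h had 0 members (1 as reported), and it moved no other count of members by over 1.5 times. Deviations of libraries that share a number correlated at -0.429 to 0.412 (median -0.0246, 10 of 36 pairs over 0.1). Of those 10 pairs, 7 were at 24 h (7 of 9), and mock and 100 cGy at 24 h was the one comparison with all 3 pairs over 0.1 (0.248 to 0.341), so there the numbers may pair the samples. With the block it had 0 members called, as without it, and 51 genes in place of 113. Mock and 10 cGy at 24 h had 2 of 3 pairs over 0.1 (-0.0848 to 0.412), as had 10 and 100 cGy (-0.258 to 0.367), so pairing is unsettled there. At 1, 3 and 72 h 1 of 9 pairs each was over 0.1, which gave little sign that the numbers pair the samples. Median-ratio scaling moved the median of all genes by -0.103 (100 cGy, 3 h) and -0.126 (100 against 10 cGy, 3 h). The share of calls that were higher went from 85% to 33.1%, from 93.5% to 34.8%, and from 79.5% to 35% (10 cGy, 24 h) and 12.7% to 80.4% (100 against 10 cGy, 24 h).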

Other observations

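Some homologues of the writers were expressed, such as DRM3 (median 26.2 CPM, against 9.42 CPM for DRM2) and AGO6 (3.08 CPM), which passed the filter. Several others were near silent in rosettes. MEE57, listed as a relative of MET1, was at 0 in 34 of 36 libraries. DRM1, the close relative of DRM2, was at 0 in 24 libraries, and its highest value was 0.0639 CPM. CMT1 reached 0.351 CPM at most and AGO9, a germline relative of AGO4, 0.542 CPM, against medians of 52.7 CPM for CMT2 and 46.6 CPM for AGO4.

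Genes known to respond to, or to read, DNA methylation were counted from a list of 11, of which 8 passed the filter. SUVH3, a reader that supports transcription of methylated genes, rose at 1 h after 10 cGy (0.28, adjusted p = 0.0164) and 100 cGy (0.28, adjusted p = 0.019). RMG1, an immune receptor gene under ROS1 control, was called higher after 10 cGy at 1 h (1.22, adjusted p = 0.0492), at group means of 1.39 and 0.284 CPM. Its libraries ran from 0.0293 to 3.60 CPM over the series, and how far the call rested on single libraries was not examined. SDC, FWA and AT4G18650 of the same list did not pass the filter, with highest values of 0.0950, 0.0958 and 0.0355 CPM. The calls of SUVH3 and RMG1 made 2 of 8 at 10 cGy and 1 of 8 at 100 cGy, against 25.3% and 17.6% of all genes, so neither share was above its background. Each of these calls was a rise, and 13.6% and 10.3% of all genes were called higher. In the comparisons with mock at 3, 24 and 72 h 0 of 8 passed in limma, with 0 to 2 at an unadjusted p under 0.05. Of the 18875 genes 2663 to 5397 had an unadjusted p under 0.05 there.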
